A study of Callithrix jacchus with 4 samples.

Results

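Plaque-associated microglia state genes are 9 genes that mouse microglia induce around amyloid deposits: SPP1, GPNMB, LPL, CD9, LGALS3, ITGAX, CST7, AXL and CLEC7A. They were taken by symbol from a table of 35108 genes, where all 9 were listed, and genes of the lysosome and of the TREM2 axis were left out by the rule. The measurements are RNA-seq counts from the frontal cortex of adult common marmosets (Callithrix jacchus), with 2 libraries labelled as carrying an APP transgene and 2 labelled wild type. The transgene encodes mutant amyloid precursor protein and is driven by the human EF1α promoter, a housekeeping promoter that is not restricted to neurons. Both transgenic libraries are labelled female, and no sex is given for the wild type. Nothing in the labels says that replicate libraries are from different animals, so p-values measure the spread between these libraries. In the transgenic pair that spread may be technical. The wild-type pair differed in sex by a Y-linked gene, given below, and so came from different animals.

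Microglia are the resident macrophages of the brain. In mouse models of amyloid deposition, microglia that touch plaques lose genes of the resting state and gain a set of genes for lipid handling, phagocytosis, adhesion and protease control, a state called disease-associated. The members belong mostly to the later, TREM2-dependent part of that set. Several have other sources in cortex: in primates and rodents CD9 is also made by oligodendrocytes, AXL by astrocytes and endothelium, LPL and SPP1 by some neurons, and CLEC7A, ITGAX and LGALS3 by monocytes and other leukocytes. In bulk tissue, fewer cells of a type and less RNA per cell cannot be told apart. The files hold no measure of plaques.

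Library totals ranged from 12657323 to 18932180 counts, and a count of 3, the level below which a gene cannot be told from 0, corresponded to 0.166 to 0.232 CPM (counts scaled to library size). APP had 2143 and 2748 CPM in transgenic libraries 1 and 2, against 1822 and 2182 CPM in wild-type libraries 1 and 2, so the groups overlapped. KDM5D, which lies on the Y chromosome, had no count in either transgenic library, against 2 and 243 in wild-type libraries 1 and 2, so sex differed within the wild-type pair and between 1 wild-type library and the transgenic pair. Sex and genotype therefore cannot be fully told apart. Transgenic library 2 stood apart from the other 3: the chi-square of its counts against theirs, per degree of freedom over genes, was 37.6 to 48.1, against 7.62 to 12.9 among the other 3. Each member below is therefore given by library, and each member tested is given with and without that library.

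The comparison asks whether these genes differ between transgenic and wild-type cortex. In edgeR's quasi-likelihood fit, with p-values adjusted over all genes tested and a threshold of 0.05, 0 of 16385 genes tested were called (0%), the members included. An unadjusted p under 0.05 was found for 919 genes (5.61%). DESeq2 called 46 genes (0.201% of those it tested), none of them a member, and limma-voom called 0. Of the 9 members, 8 had enough counts to be tested and CST7 did not. LGALS3 alone among the 8 had an unadjusted p under 0.05. In 1 of the 8 (LGALS3) both transgenic libraries were above both of the wild type, as in 19.5% of all genes tested, and in 1 of the 8 (GPNMB) both were below, as in 19.4%. The other 6 overlapped. The median log2 fold change of the 8 was -0.17, beside 0.00 over all genes tested, with 3 higher and 5 lower in sign, where 49.6% of all genes were higher in sign.

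**Figure D1:**
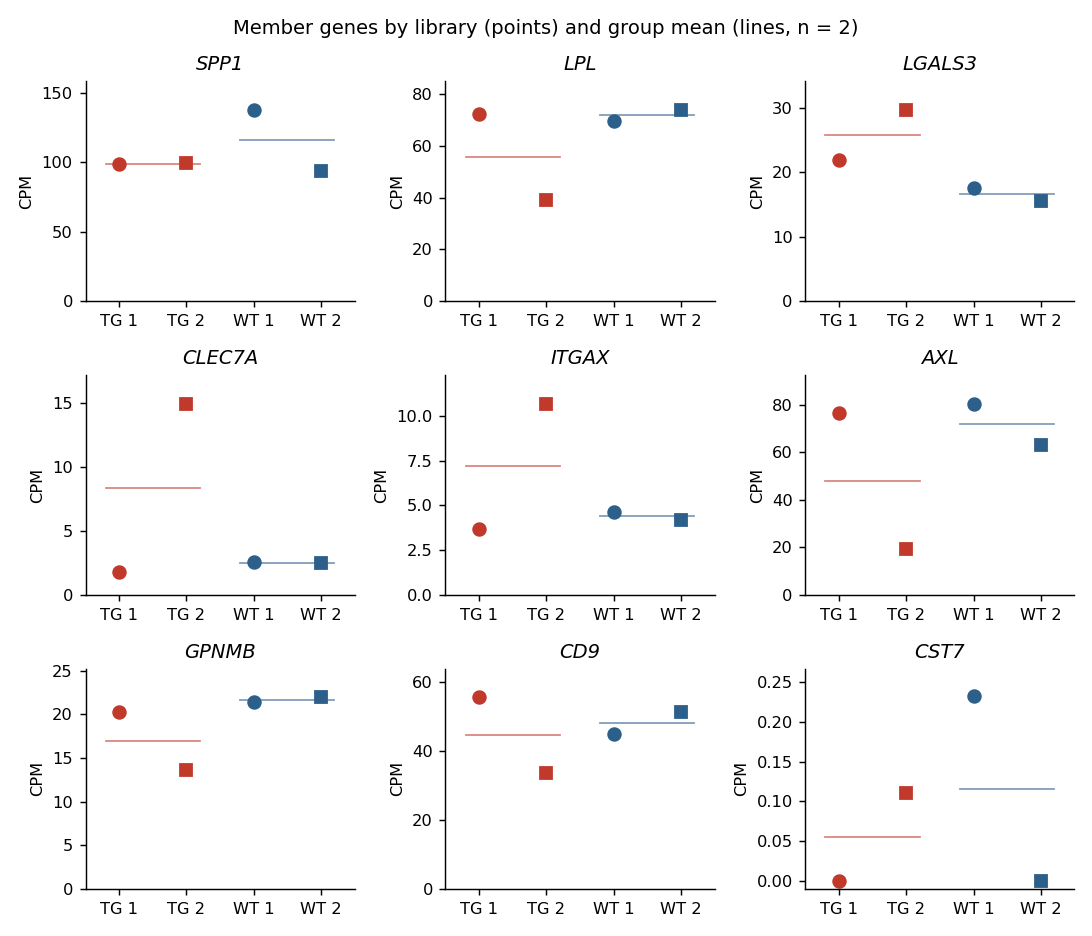
CPM (counts relative to the TMM-scaled library size, linear axes) of the 9 members in each library, with transgenic (TG) libraries in red, wild-type (WT) libraries in blue and each group's mean as a line (n = 2). CLEC7A, ITGAX and AXL separate TG 2 from the other 3 libraries, while LGALS3 is higher in both TG libraries than in both WT libraries.

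LGALS3 encodes galectin-3, a lectin that binds β-galactosides and gathers on damaged endosomes and lysosomes. It had 21.9 and 29.7 CPM in transgenic libraries 1 and 2, against 17.6 and 15.6 CPM in wild-type libraries 1 and 2. It was the member whose groups stood apart upwards, with the higher value in transgenic library 2. The means were 25.8 ± 5.54 CPM in transgenic and 16.6 ± 1.46 CPM in wild-type cortex (SD, n = 2 each), a fitted 1.56-fold difference (log2 0.64 ± 0.22 SE, 95% interval 0.079 to 1.20). With an edgeR adjusted p of 0.79 (unadjusted 0.032), the difference did not pass. The log2 fold change was 0.40 without transgenic library 2 (edgeR adjusted p = 0.97), and without transgenic library 1 it was 0.84 and passed (edgeR adjusted p = 0.036).

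Among 8 other galectins and glycoprotein ligands, 7 were tested, 0 were called and 5 were higher in sign, and the median log2 fold change was 0.26. LGALS3BP, the secreted galectin-3-binding protein, had 15.4 and 22.8 CPM in the transgenic libraries, against 6.65 and 12.2 CPM in the wild-type libraries (log2 1.01 ± 0.37 SE, edgeR adjusted p = 0.79). LGALSL, a galectin-related gene, had 61.9 and 66.3 CPM in transgenic cortex, against 51.8 and 50.3 CPM in wild type (edgeR adjusted p = 0.79). These 2 genes, the list's 2 smallest p-values, were above the wild-type range in both transgenic libraries, and LAMP2 was the 1 gene of 7 below it, against 19.5% and 19.4% of all genes tested. LGALS1, which encodes galectin-1, went the other way in sign and overlapped, at 5.59 and 3.38 CPM against 4.64 and 11.2 CPM.

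CLEC7A encodes Dectin-1, a C-type lectin receptor that recognises fungal β-glucan and signals through SYK. It had 1.84 and 14.95 CPM in transgenic libraries 1 and 2, against 2.55 and 2.49 CPM in the wild-type libraries. Transgenic library 2 was the high one, and transgenic library 1 was the lowest of the 4. The counts behind these values were 25 and 270, against 33 and 34, and the exact 95% Poisson intervals of the transgenic pair were 16.2 to 36.9 and 239 to 304, for counting error alone. The 8.14-fold gap between the transgenic libraries was thus larger than counting error, and the wild-type pair agreed within it. The fitted log2 fold change was 1.74 ± 0.92 SE (95% interval -0.57 to 4.06), and edgeR's p was 0.12 unadjusted and 0.79 adjusted. It was -0.46 without transgenic library 2 (edgeR adjusted p = 0.97) and 2.56 without transgenic library 1 (edgeR adjusted p = 0.0014).

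The signalling partners of CLEC7A were measured as a list of 10 genes, of which 6 were tested, 0 were called and 5 were higher in sign (median log2 fold change 0.06). SYK, the kinase that the receptor recruits, had 3.45 and 6.98 CPM in transgenic cortex, against 3.95 and 5.997 CPM in wild type. PRKCD, a protein kinase C that acts below SYK, had 36.5 and 47.4 CPM, against 20.1 and 33.9 CPM in wild type (log2 0.64 ± 0.29 SE, edgeR adjusted p = 0.79). SYK thus overlapped between the groups. PRKCD, which had the list's smallest p, was the 1 gene of 6 above the wild-type range in both transgenic libraries. Among all genes tested that share was 19.5%. PLCG2, a phospholipase on the same route, had 2.79 and 2.66 CPM, against 2.63 and 5.19 CPM. CARD9, the adaptor that carries the signal to NF-κB, had 2 and 2 counts against 4 and 6, and was not tested. Other C-type lectin receptors, chosen here after their values were seen, were also highest in transgenic library 2: CLEC6A (Dectin-2) had 0 and 137 counts, against 5 and 2, and CLEC4E (Mincle) had 4 and 84 counts, against 0 and 0.

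ITGAX encodes CD11c, an integrin α chain that pairs with the β2 chain ITGB2 on myeloid cells. It had 3.67 and 10.7 CPM in transgenic libraries 1 and 2, against 4.64 and 4.17 CPM in the wild-type libraries. As with CLEC7A, transgenic library 2 was highest and transgenic library 1 lowest. The gap between the transgenic libraries was 2.91-fold, and the fitted log2 fold change was 0.71 ± 0.53 SE (95% interval -0.64 to 2.06, edgeR adjusted p = 0.80). It was -0.26 without transgenic library 2 (edgeR adjusted p = 0.97) and 1.28 without transgenic library 1 (edgeR adjusted p = 0.027).

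Of 7 leukocyte integrin genes and ligands, 4 were tested and 0 called, with 3 higher in sign and a median log2 fold change of 0.50. ITGB2 had 5.44 and 21.4 CPM in transgenic cortex, against 8.59 and 15.4 CPM in wild type, so the partner chain showed the same extremes as ITGAX over a wider wild-type range. ICAM1, the endothelial and glial ligand of β2 integrins, had 1.32 and 93.3 CPM, against 0.696 and 0.512 CPM (log2 6.28 ± 2.09 SE, edgeR adjusted p = 0.79). Nearly all of that difference was carried by transgenic library 2. FERMT3, which activates integrins in blood cells, had 1.40 and 11.02 CPM, against 3.56 and 3.51 CPM. ITGAD, the neighbour of ITGAX in the RefSeq annotation of calJac240_pri and a gene of like sequence, had 1 and 19 counts against 8 and 5, and the counting of reads shared by such copies is not stated in the sources used here. In that annotation ITGAX was also the 1 member that another gene overlaps, the rRNA gene LOC118146559, which had 0 and 1 counts, against 0 and 0.

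AXL encodes a receptor tyrosine kinase of the TAM family (TYRO3, AXL, MERTK) that binds GAS6 and serves in the clearance of dead cells. It had 76.3 and 19.5 CPM in transgenic libraries 1 and 2, against 80.4 and 62.9 CPM in wild-type libraries 1 and 2. Transgenic library 2 was the low one, and transgenic library 1 was inside the wild-type range. The fitted log2 fold change was -0.58 ± 0.60 SE (95% interval -2.10 to 0.94, edgeR adjusted p = 0.83). It was 0.088 without transgenic library 2 (edgeR adjusted p = 0.98) and -1.87 without transgenic library 1 (edgeR adjusted p = 0.0016).

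The other TAM receptors and ligands were 4 genes, all tested, with 0 called and a median log2 fold change of 0.04. MERTK, which microglia and astrocytes use to take up debris, had 21.2 and 5.43 CPM in transgenic cortex, against 30.1 and 30.1 CPM in wild type (log2 -1.18 ± 0.60 SE, edgeR adjusted p = 0.79). It was below wild type in both transgenic libraries and, like AXL, lowest in transgenic library 2. The ligand GAS6 had 35.1 and 35.4 CPM, against 32.8 and 34.7 CPM, and the ligand PROS1 had 17.7 and 5.26 CPM, against 7.89 and 8.34 CPM. TYRO3, the neuronal member of the family, had 198.7 and 210.5 CPM, against 194.9 and 210.3 CPM, a spread smaller than that of AXL or MERTK.

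SPP1 encodes osteopontin, a secreted phosphoprotein that binds αv and other integrins and CD44. It had 98.5 and 99.5 CPM in transgenic libraries 1 and 2, against 138 and 93.6 CPM in wild-type libraries 1 and 2. The transgenic libraries were nearly equal and lay inside the wild-type range, whose upper end was wild-type library 1. The fitted log2 fold change was -0.22 ± 0.21 SE (95% interval -0.74 to 0.29, edgeR adjusted p = 0.82). It was 0.075 without wild-type library 1 and -0.47 without wild-type library 2, so its sign was set by wild-type library 1. Without transgenic library 2 it was -0.235, and without transgenic library 1 it was -0.217.

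All 9 osteopontin receptor genes were tested, 0 were called and 5 were higher in sign, and the median log2 fold change was 0.33. CD44, the hyaluronan and osteopontin receptor of reactive astrocytes and leukocytes, had 4.63 and 17.3 CPM in transgenic cortex, against 2.24 and 2.19 CPM in wild type (log2 2.31 ± 0.65 SE, edgeR adjusted p = 0.79). The integrin β3 gene ITGB3 had 2.65 and 6.42 CPM, against 1.39 and 1.02 CPM (log2 1.91 ± 0.55 SE, edgeR adjusted p = 0.79). Both were above wild type in each transgenic library and higher in library 2. The αv gene ITGAV was below wild type in both, at 64.3 and 42.5 CPM against 79.2 and 69.9 CPM (log2 -0.48 ± 0.23 SE, edgeR adjusted p = 0.79). Of the 9 receptors, 5 were above the wild-type range in both transgenic libraries and 3 were below it in both, against the 19.5% and 19.4% of all genes given above.

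LPL encodes lipoprotein lipase, which frees fatty acids from the triglycerides of lipoproteins. It had 72.5 and 39.2 CPM in transgenic libraries 1 and 2, against 69.6 and 73.9 CPM in the wild-type libraries. Transgenic library 1 was inside the wild-type range and transgenic library 2 below the other 3. The fitted log2 fold change was -0.37 ± 0.30 SE (95% interval -1.12 to 0.39, edgeR adjusted p = 0.81). It was 0.010 without transgenic library 2 (edgeR adjusted p = 0.996) and -0.88 without transgenic library 1 (edgeR adjusted p = 0.012).

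Of 15 genes that serve lipoprotein lipase or handle its products, 10 were tested and 0 called, with 4 higher in sign and a median log2 fold change of -0.07. VLDLR, a lipoprotein receptor, had 39.5 and 46.2 CPM in transgenic cortex, against 26.9 and 29.2 CPM in wild type (log2 0.61 ± 0.16 SE, edgeR adjusted p = 0.79). ANGPTL4, a secreted inhibitor of the lipase, had 1.62 and 12.2 CPM, against 1.70 and 1.46 CPM (log2 2.14 ± 0.92 SE, edgeR adjusted p = 0.79). Transgenic library 2 was highest for ANGPTL4 and lowest for LPL, and a link between these genes was not tested. That library also held the lowest value of 5823 of the 16385 genes tested. The scavenger receptor gene LRP1 overlapped, at 277 and 263 CPM against 302 and 262 CPM. GPIHBP1, which anchors the lipase to capillaries, had 2 and 7 counts against 3 and 4, and was not tested.

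GPNMB encodes a transmembrane glycoprotein of lipid-laden macrophages. It had 20.3 and 13.6 CPM in transgenic libraries 1 and 2, against 21.4 and 21.9 CPM in the wild-type libraries. It was the member whose groups stood apart downwards, although transgenic library 1 was just below the wild-type range. The fitted log2 fold change was -0.36 ± 0.25 SE (95% interval -0.98 to 0.27, edgeR adjusted p = 0.80). It was -0.097 without transgenic library 2 (edgeR adjusted p = 0.98) and -0.68 without transgenic library 1 (edgeR adjusted p = 0.078).

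Transcription factors of the MITF family drive GPNMB in macrophages and melanocytes. Of the 5 genes listed (4 factors and the GPNMB relative PMEL), 4 were tested and 0 called, with a median log2 fold change of -0.06. MITF itself had 10.8 and 11.6 CPM in transgenic cortex, against 10.8 and 10.7 CPM in wild type, and TFE3 had 61.8 and 60.8 CPM, against 66.7 and 71.7 CPM. TFEC, the family member found mainly in macrophages, had 3 and 82 counts, against 18 and 7. In TFEC the high library was again transgenic library 2, and the groups overlapped.

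CD9 encodes a tetraspanin, a membrane organiser that is common on exosomes and in myelin-forming cells. It had 55.4 and 33.6 CPM in transgenic libraries 1 and 2, against 44.8 and 51.1 CPM in the wild-type libraries, so the transgenic libraries were the highest and the lowest of the 4. The fitted log2 fold change was -0.11 ± 0.26 SE (95% interval -0.78 to 0.56, edgeR adjusted p = 0.92). It was 0.21 without transgenic library 2 (edgeR adjusted p = 0.97) and -0.51 without transgenic library 1 (edgeR adjusted p = 0.10).

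All 10 other tetraspanins and partners were tested and 0 called, with 4 higher in sign and a median log2 fold change of -0.05. CD81, a close relative of CD9, had 193 and 181 CPM in transgenic cortex, against 219 and 186 CPM in wild type. CD82 was below wild type in both transgenic libraries, at 31.4 and 16.3 CPM against 41.0 and 35.2 CPM (edgeR adjusted p = 0.79). IGSF8, which binds CD9 and CD81, was above, at 248 and 337 CPM against 223 and 242 CPM (edgeR adjusted p = 0.79). Over the list, 2 of the 10 were above the wild-type range in both transgenic libraries and 2 below it, near the 19.5% and 19.4% of all genes tested.

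CST7 encodes cystatin F, an inhibitor that restrains cathepsin C and other cysteine proteases inside lysosomes of immune cells. It had 0 and 2 counts in transgenic libraries 1 and 2, against 3 and 0 counts in wild-type libraries 1 and 2. No library exceeded 3 counts, so the gene could not be told from 0 in any of them and no fold change is given. A count of 0 allows up to 0.22 CPM in transgenic library 1 and 0.219 CPM in wild-type library 2. CTSC, the gene of cathepsin C, was above wild type in both transgenic libraries, at 21.8 and 22.9 CPM against 11.3 and 18.6 CPM (log2 0.58 ± 0.28 SE, edgeR adjusted p = 0.79). CST3, the abundant secreted cystatin C of brain, was below wild type in both, at 344 and 192 CPM against 599.5 and 430.5 CPM (log2 -0.94 ± 0.32 SE, edgeR adjusted p = 0.79). Of 9 cystatins and cathepsins, 7 were tested, 0 were called and 4 were higher in sign.

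**Figure D2:**
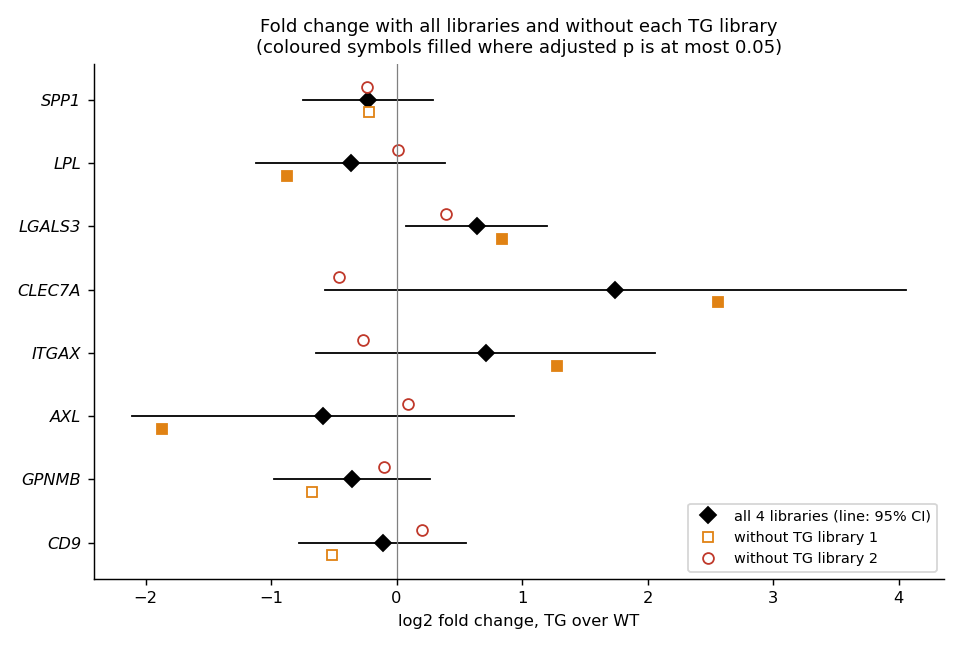
Log2 fold change (TG over WT) of the 8 members tested, with all 4 libraries (black diamond, line for the 95% interval) and without transgenic library 1 (orange squares) or 2 (red circles), filled where the edgeR adjusted p is at most 0.05. With all libraries none passes. Without library 1 the transgenic group is library 2 alone, so filled orange squares describe that library.

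Among themselves the members diverged mainly between the transgenic libraries. Transgenic library 2 held at least 2 times the CPM of transgenic library 1 in 2 of the 8 members tested (CLEC7A and ITGAX), against 2.78% of all genes tested, with 0.5 CPM added to each value. It held at most 1/2 in 1 of the 8 (AXL), against 6.27% of all genes. When transgenic library 1 was left out, 5 of the 8 members passed edgeR's test, 3 as higher (LGALS3, ITGAX and CLEC7A) and 2 as lower (LPL and AXL). In that fit 9.92% of all genes passed, 4.52% as higher and 5.4% as lower, and the single transgenic library was assumed to vary like the wild-type pair. When transgenic library 2 was left out, none of the 8 members passed, and 0.0175% of all genes did. The members were chosen with earlier results of these data known, so these counts describe the libraries and test nothing.

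**Figure D3:**
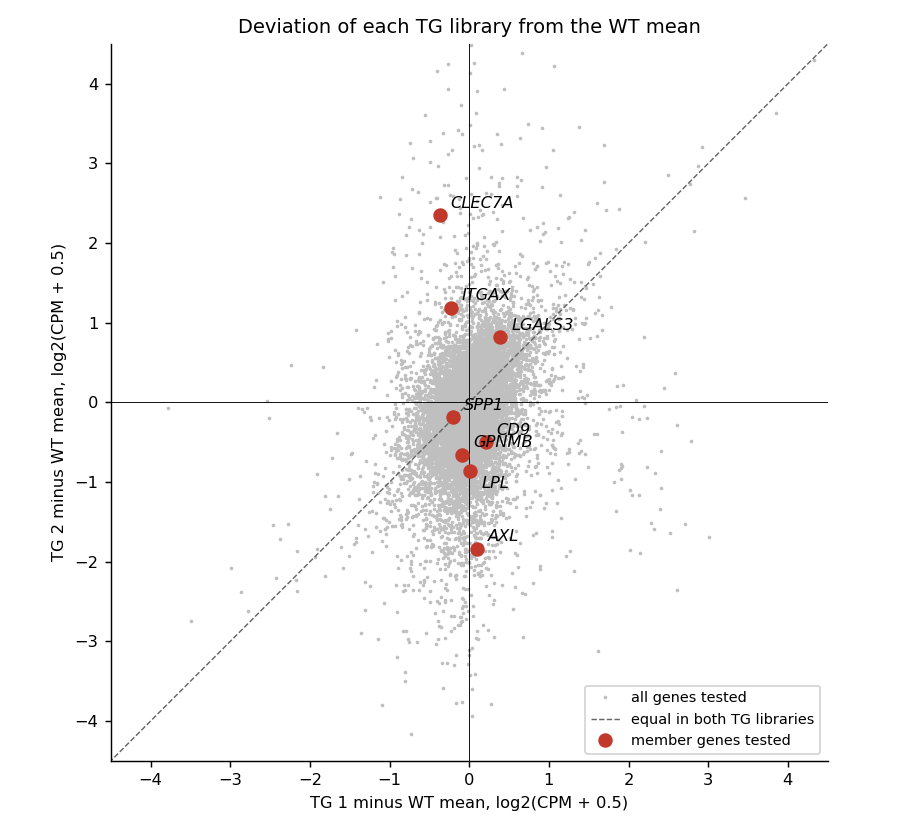
Deviation of each gene from the wild-type mean, on the scale of log2(CPM + 0.5), in transgenic library 1 (x axis) and transgenic library 2 (y axis), with 16375 of the 16385 genes tested inside the axes (grey) and 8 members in red. CLEC7A and ITGAX lie high and AXL low on the y axis alone, LGALS3 is positive on both axes, and the dashed line marks equal deviations.

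Markers of other cell types moved with transgenic library 2 as well, and their part in the members' values was not tested. Of 16 microglial markers, 15 were tested, 0 were called and 14 were lower in sign, and the median log2 fold change was -0.82. Their summed level was 227 and 154 CPM in transgenic libraries 1 and 2, against 299 and 380 CPM in the wild-type libraries. The resting-state receptor gene CX3CR1 had 40.3 and 3.77 CPM, against 37.5 and 68.5 CPM, and LAPTM5, a lysosomal membrane gene of leukocytes, had 25.6 and 16.5 CPM, against 34.6 and 49.6 CPM. TMEM119, a defining marker of resting microglia named here after its values were seen, had 91 and 3 counts, against 112 and 206, which puts transgenic library 2 at the detection limit. Of the 16385 genes tested, 5823 had their lowest value in transgenic library 2 and 3319 in transgenic library 1. The microglial list did not move as 1 block: 9 of the 16 markers were lowest of the 4 libraries in transgenic library 2 and 5 were lowest in transgenic library 1. Those 5 included the complement genes C1QA, C1QB and C1QC, and C1QC had 5.14 and 27.0 CPM, against 33.9 and 11.3 CPM. DOCK8 was above wild type in both, at 10.4 and 9.91 CPM against 5.96 and 7.24 CPM. These 4 genes were also named after their values were seen.

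Of 10 monocyte and neutrophil markers, 9 were in the table and 3 were tested. Their sum was 16.9 and 260 CPM in transgenic libraries 1 and 2, against 21.1 and 21.0 CPM in wild type, and 3 genes named after their values were seen made up nearly all of the excess. S100A9 had 3 and 3705 counts, against 10 and 8, S100A8 had 0 and 585 counts, against 4 and 0, and S100A12 had 2 and 241 counts, against 8 and 0. These calcium-binding proteins are abundant in neutrophils and monocytes. The other markers of those cells did not follow them in transgenic library 2. LYZ had 4.65 CPM and CSF3R had 4.37 CPM there, against 11.3 to 14.9 CPM and 4.18 to 8.70 CPM in wild type, and FCN1 and MNDA had 1 count each. Among T and NK cell markers, 7 of 10 had no more than 3 counts in every library, GZMA and PRF1 had none, and the list's sum was 19.1 and 23.8 CPM, against 19.0 and 21.3 CPM. IL7R, named after its values were seen, had 2 and 84 counts, against 1 and 3, and CD2 had 28 and 119 counts, against 40 and 66, so both were highest in transgenic library 2. Border macrophage markers summed to 33.0 and 27.0 CPM, against 27.9 and 43.7 CPM. The 2 highest in wild type did not share an order: STAB1 had 16.7 and 14.2 CPM, against 15.9 and 24.5 CPM. F13A1 had 4.04 and 6.20 CPM, against 3.87 and 4.53 CPM. CD209, which was not tested, had 0 and 0 counts, against 1 and 2.

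AXL, LPL, CD9 and GPNMB, 4 of the 9 members, were lowest in transgenic library 2, as were 5823 of the 16385 genes tested. The astrocyte and oligodendrocyte lists had their lowest sums there too, as did those of microglia, border macrophages, oligodendrocyte precursors, endothelium and, narrowly, mural cells. Astrocyte markers summed to 6922 and 2022 CPM in transgenic libraries 1 and 2, against 7813 and 6625 CPM in wild type, with the glutamate transporter gene SLC1A2 at 4337 and 999 CPM, against 4922 and 4173 CPM. Oligodendrocyte markers summed to 3360 and 1236 CPM, against 3399 and 2690 CPM, with the myelin gene MBP at 851 and 353 CPM, against 1089 and 739 CPM. Endothelial markers summed to 187 and 166 CPM, against 311 and 233.5 CPM. Of the 10, 6 were below the wild-type range in both transgenic libraries, against 19.4% of all genes tested. ERG, CDH5 and TIE1, named after their values were seen, were highest in transgenic library 2, with CDH5 at 9.48 and 21.8 CPM, against 11.9 and 13.2 CPM. Precursors of oligodendrocytes summed to 478 and 287 CPM, against 486 and 402.5 CPM, and mural cells to 227 and 220.6 CPM, against 233 and 221 CPM. The mural sums were nearly equal, but 7 of the 8 mural markers were lowest in transgenic library 2. Their median deviation from the wild-type mean there was -0.914 in log2. Fibroblast markers summed to 269 and 63.8 CPM, against 56.2 and 205 CPM, an order that no member shared. Excitatory and inhibitory neuron markers summed to 5884 and 6272 CPM and to 843 and 965 CPM, against 5594 and 6757 CPM and 767 and 782 CPM. Whether these shifts account for the levels of AXL, LPL, CD9 and GPNMB was not tested.

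**Figure D4:**
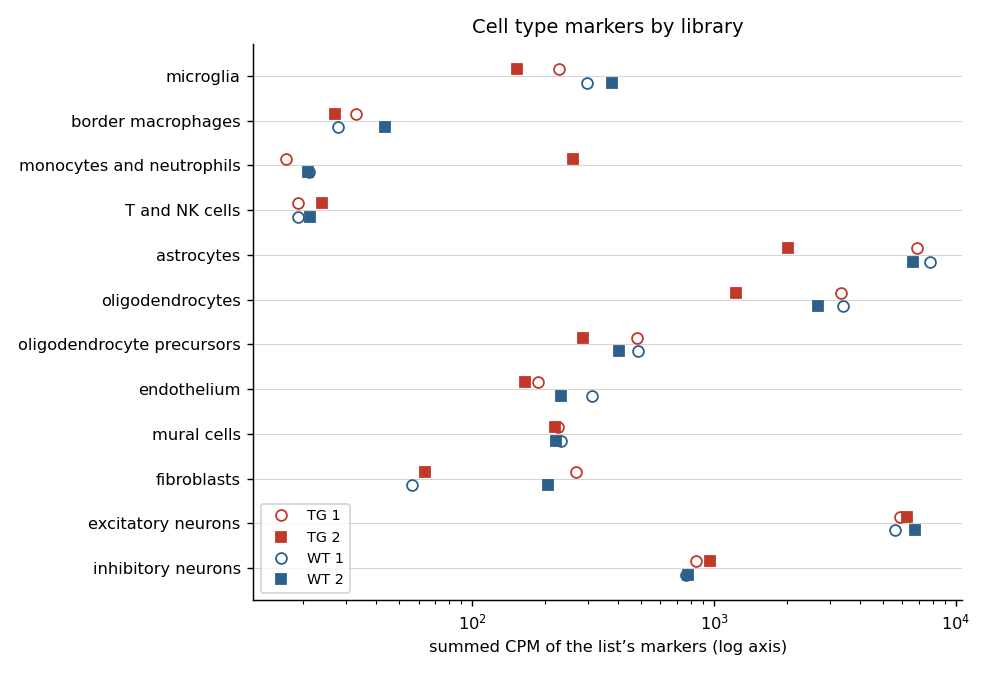
Summed CPM (log axis) of 12 lists of cell type markers in each library, with TG libraries in red above WT libraries in blue, and open circles for library 1 and filled squares for library 2 of each group. Transgenic library 2 is lowest in microglial, astrocyte and oligodendrocyte markers, among others, and highest in monocyte and neutrophil markers.

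Set against the summed microglial markers, the members read differently, because the denominator itself was lower in transgenic cortex. LGALS3 had 9.63 and 19.3 CPM for every 100 CPM of microglial markers in transgenic libraries 1 and 2, against 5.89 and 4.10 in wild-type libraries 1 and 2. CD9 had 24.4 and 21.9, against 14.97 and 13.5, and GPNMB had 8.92 and 8.82, against 7.13 and 5.78. On this scale LGALS3, CD9, GPNMB, LPL and ITGAX were above the wild-type range in both transgenic libraries. The same held for 79.2% of all genes tested, so this count of 5 of 8 says nothing about the members. CLEC7A had 0.808 and 9.72, against 0.853 and 0.655, and ITGAX had 1.62 and 6.95, against 1.55 and 1.10. Transgenic library 2 was already highest in CPM for both genes and had the lowest marker sum. Its lead on this scale was therefore fixed in advance and adds nothing to the CPM values.

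**Figure D5:**
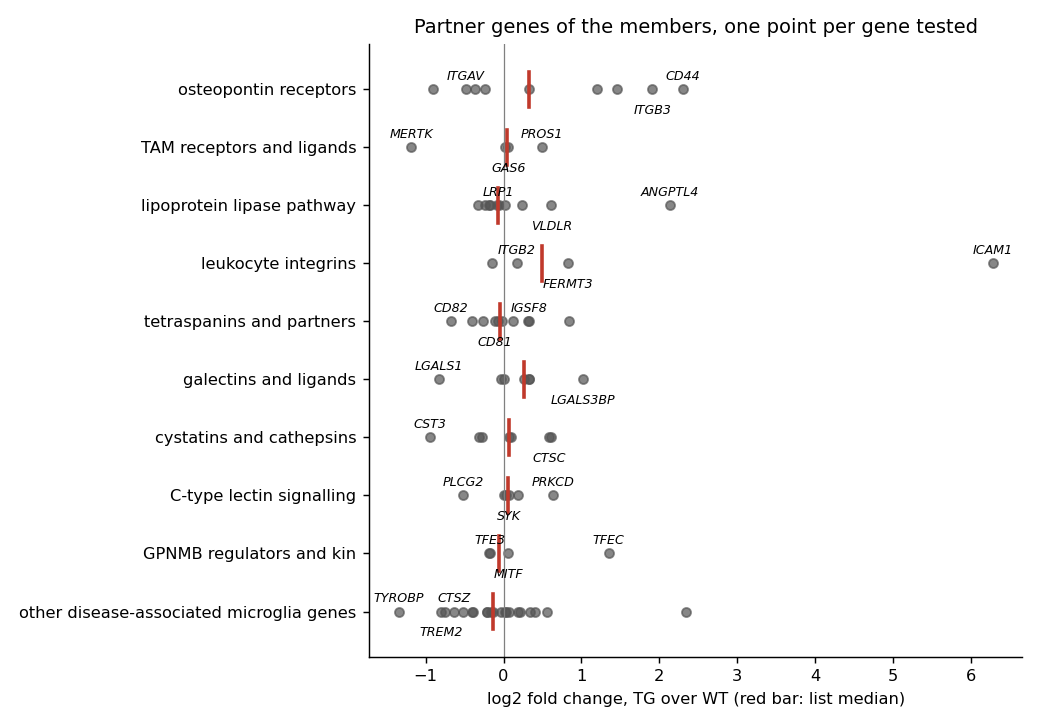
Log2 fold change (TG over WT) of the genes tested in 10 lists of partners of the members, 1 point per gene, with the list's median as a red bar and named genes labelled. Medians lie between -0.13 and 0.50, no gene passes an edgeR adjusted p of 0.05, and ICAM1, CD44 and ANGPTL4 lie far to the right.

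Of the other genes of the disease-associated state, 25 were listed, 23 were in the table and 21 were tested, with 0 called by edgeR, 9 higher and 12 lower in sign, and the median log2 fold change was -0.13. TYROBP, the adaptor of TREM2, had 7.35 and 6.26 CPM in transgenic cortex, against 15.01 and 19.6 CPM in wild type (log2 -1.35 ± 0.24 SE, edgeR adjusted p = 0.79, DESeq2 adjusted p = 0.050). It was among the 46 genes that DESeq2 called. TREM2 had 8.82 and 9.19 CPM, against 10.2 and 21.3 CPM. CTSZ, a cathepsin gene, was also below wild type in both transgenic libraries, at 15.7 and 19.0 CPM against 25.3 and 28.7 CPM (edgeR adjusted p = 0.79). Over the list, 6 of 21 genes were below the wild-type range in both transgenic libraries and 2 above it, against 19.4% and 19.5% of all genes tested. The 2 above, like LGALS3, were HIF1A, at 118 and 171 CPM against 102 and 94.5 CPM, and TIMP2, at 258 and 246.5 CPM against 213 and 221 CPM, both named after their values were seen. CD83, a maturation marker of dendritic cells and activated microglia that is named here after its values were seen, had 15.2 and 164 CPM, against 18.7 and 16.7 CPM, and so had its high value in the same library as CLEC7A and ITGAX.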

How the data were processed

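The authors deposited raw read counts per gene symbol, without normalization. STAR 2.5.3a, featureCounts 1.5.2 and kallisto 0.46.2 are named, without roles, per the submitters' processing notes. The genome build, annotation and strand setting are not stated in the sources used here.

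Genes kept by filterByExpr (16385) were tested with edgeR 4.0.16 in R 4.3.3 (TMM scaling, quasi-likelihood F-test, genotype as the only term, 2 residual degrees of freedom), with Benjamini-Hochberg adjustment over all of them and a threshold of 0.05. With 2 libraries a group, the smallest two-sided p of an exact permutation test is 0.33. Standard errors come from the fitted weights and posterior quasi-dispersion. CPM uses TMM-scaled library sizes. Intervals and detection limits on counts cover counting error only. Alternatives were DESeq2 1.42.0, limma-voom (limma 3.58.1), other scalings, no filter, a replicate block and leaving out each library. The steps were tested on simulated data.

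The members and the 22 gene lists were chosen with earlier results of these data known. Named genes were the members, a fixed set of partners, the 2 partners with the smallest p per list and the 2 markers per cell type highest in wild type, of which 1 is not reported here. With 4 libraries, no correlation between a gene and a member was computed, and likeness such as that of CD83 to CLEC7A was read by eye. Gene lengths were not used, so levels are not compared between genes.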

Additional observations from a re-analysis of the deposited data

How the results depend on the processing

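With all 4 libraries, no alternative tool, scaling, filter or block changed the sign of a member tested or brought one past the threshold. The number of genes called was 0 in edgeR, 46 in DESeq2 and 5 with no filter on low counts, and it ranged from 0 to 1710 when 1 library was left out, the highest without transgenic library 1. The members' median log2 fold change ranged from -0.365 without transgenic library 1 to -0.044 without transgenic library 2. Leaving out 1 library gave log2 fold changes of -0.47 to 0.075 for SPP1, -0.88 to 0.010 for LPL, -0.51 to 0.21 for CD9, -0.26 to 1.28 for ITGAX, -1.87 to 0.088 for AXL and -0.46 to 2.56 for CLEC7A, and each changed sign once. LGALS3 and GPNMB kept their signs. The loss of a library also lowers the sample number, and the cause of each change was not tested.

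With the replicate number as a block, edgeR called 0 genes and the median was -0.17. Same-numbered libraries deviated with a correlation of -0.13 across 16385 genes. With 2 libraries a group this compares a single contrast from each group, so it cannot show whether the numbers pair the samples. With the numbers crossed, a setting chosen after seeing the data, 0 genes were called.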
